A study of Rattus norvegicus with 3 samples.

Results

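The genes described here are the neuregulins Nrg1, Nrg2, Nrg3 and Nrg4 and the ErbB receptors Egfr, Erbb2, Erbb3 and Erbb4, 8 of the 23098 genes listed for 3 single-nucleus RNA libraries of rat nucleus accumbens. They were taken by symbol, and the family was chosen by a value seen in an earlier look at these data, the Nrg3 level in oligodendrocytes, which had been lowest in the high anxiety library. The Nrg3 difference in oligodendrocytes between the low and high anxiety libraries is therefore given as a description and supports nothing. The rats were outbred Wistar animals, 16 weeks old, sorted into low and high anxiety by behaviour on the elevated plus maze and in an open field with an unfamiliar object. The 3 groups were low anxiety without treatment, high anxiety without treatment, and high anxiety given urolithin A for 2 months. Urolithin A is a compound that gut bacteria make from plant ellagitannins. Each group was 1 library made from pooled accumbens punches of 5 hemispheres, and the labels name neither the sex nor the number of the animals. The comparisons address how accumbens cells of anxious rats differ from those of calm rats, and how they differ after urolithin A.

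Neuregulins are ligands with an EGF-like domain, most of them made as membrane proteins and cut free by proteases at the cell surface. They bind ErbB3 and ErbB4, which pair with each other or with ErbB2, and the pairs signal through the Ras and MAP kinase arm and the PI3 kinase arm. ErbB2 has no known ligand of its own, ErbB3 has little kinase activity, and EGFR is the receptor for EGF and its relatives. In the forebrain, NRG1 and NRG3 are known from neurons, and ErbB4 is best known from GABAergic interneurons, where it takes part in the making of their synapses. In the oligodendrocyte lineage, ErbB3 and ErbB4 are known as receptors of axonal neuregulin.

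The low anxiety, high anxiety and urolithin A libraries held 3619, 4066 and 3739 barcodes, with totals of 16728049, 22095390 and 19162530 unique molecular identifiers (UMIs). Of these barcodes, 3379, 3694 and 3421 nuclei were kept, with medians of 3952, 4549.5 and 4726 UMIs, and the libraries shared 4 to 6 barcodes in each pair. The 8 genes gave 90867, 127114 and 96397 UMIs. Clusters were rebuilt without the 8 genes and named from marker lists. The names gave 2 clusters each of D1 and D2 medium spiny neurons, the striatal projection neurons with D1 or D2 dopamine receptors. Another 3 clusters were eccentric medium spiny neurons, a further projection neuron type marked by Casz1 and Otof. Glutamatergic neurons, with the marker Slc17a7, numbered 99, 198 and 21 nuclei, and neuroblasts 36, 108 and 3, so the libraries did not hold the same mix of cells. Levels are CPM, the UMIs of a gene per 1000000 UMIs of its class in a library, given in the order low anxiety, high anxiety, urolithin A. With 1 library per group there was no test. Intervals are exact 95% intervals that cover counting error only, and UMIs of one nucleus are not independent. Because counts were not scaled to transcript length, levels were compared between classes and libraries and not between genes.

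Nrg1 was highest in projection neurons and low in glia in all 3 libraries. Nrg1 encodes the founding neuregulin, whose forms include a membrane-bound one presented by axons. Its level in D1 neurons was 4064, 4437 and 3811 CPM, above every value in D2 neurons, at 3523, 3716 and 3525 CPM. Eccentric neurons followed with 3283, 3660 and 3762 CPM, a range that overlapped that of D2 neurons. GABAergic interneurons had 2522, 2593 and 2567 CPM, below all of these. Cholinergic interneurons (1059 to 1678 CPM) and glutamatergic neurons (1068 to 1211 CPM) were lower again and overlapped each other. In glia the ranges were 88.2 to 374 CPM in astrocytes, 81.1 to 134 CPM in oligodendrocyte precursors, 42.9 to 100 CPM in microglia and 21.5 to 74.1 CPM in oligodendrocytes, each overlapping the next. D1 neurons held 42.4% of all Nrg1 UMIs and 27.7% of all UMIs.

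The highest Nrg1 of any neuronal cluster was in an unnamed one led by Itgb6 and Grpr, of 193 nuclei, with 7147, 7221 and 6349 CPM. Grpr encodes the receptor for gastrin-releasing peptide. The eccentric class was not uniform in Nrg1. Its largest cluster, led by Mdfic and Casz1, had 4420, 4289 and 4466 CPM, whereas the cluster led by Chst9 and Col14a1 had 783, 992 and 1130 CPM. The cluster led by Exph5 and Stac, of 121, 11 and 17 nuclei, ranged from 111 to 1781 CPM. Only 11.8% to 28.9% of its nuclei had an Nrg1 UMI, and its name rests on 4 of 6 markers. The 2 D1 clusters had 4362, 4502 and 4044 CPM (led by Ebf1 and Reln) and 3778, 4375 and 3437 CPM (led by Nmb and Drd3). Interneurons led by Trh and Pthlh had 2549, 2837 and 2616 CPM and those led by Npy and Sst 2474, 1852 and 2459 CPM. A vascular-like unnamed cluster of 92 nuclei, with Flt1, Rgs5 and Kcnj8 among its leading genes, had 1882, 3551 and 885 CPM, which differed from library to library. It held between 21 and 39 nuclei per library.

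Nrg2 was present in neurons and in oligodendrocyte precursors. NRG2 is a close relative of NRG1 that also binds ErbB3 and ErbB4. Levels were 227, 262 and 233 CPM in D1 neurons, 277, 269 and 251 CPM in D2 neurons, and 145, 177 and 169 CPM in eccentric neurons. D1 and D2 ranges overlapped, and the eccentric range lay below both. GABAergic interneurons had 152, 142 and 156 CPM and precursors 154, 99.2 and 121 CPM. Oligodendrocytes had 10.8, 3.9 and 4.7 CPM, so Nrg2 was low in the mature cells of the lineage and in microglia, at 6.1 to 9.1 CPM.

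Nrg3 was highest in glutamatergic neurons, at 6008, 5800 and 5654 CPM. NRG3 is a neural neuregulin that binds ErbB4. The urolithin A value rests on 21 nuclei. Cholinergic interneurons followed with 2927 to 3926 CPM, from 15 to 26 nuclei per library. D1 neurons had 2126, 2179 and 1803 CPM, GABAergic interneurons 1822, 1835 and 1912 CPM and oligodendrocyte precursors 2113, 1641 and 1670 CPM, and these 3 ranges overlapped. D2 neurons had 1037, 944 and 1004 CPM, which was below D1 neurons in every library. Eccentric neurons had 833, 898 and 635 CPM, below the D2 range. Committed precursors, the stage between precursor and oligodendrocyte, had 498, 234 and 301 CPM from 16 to 36 nuclei, and oligodendrocytes 105, 27.8 and 26.7 CPM. In every library Nrg3 therefore stood highest in precursors, lower in committed precursors and lowest in oligodendrocytes.

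The difference in Nrg3 between D1 and D2 neurons was also present cluster by cluster. The D1 clusters had 1753, 1808 and 1542 CPM (Ebf1, Reln) and 2483, 2534 and 2223 CPM (Nmb, Drd3). The D2 clusters had 1006, 933 and 978 CPM (Adora2a, Drd2) and 1407, 1121 and 1209 CPM (Calcr, Kl). Both D1 clusters were above both D2 clusters in each library. Nrg4, a neuregulin better known from adipose tissue, was near its limit of detection. It gave 26 UMIs in all D1 and 26 in all D2 nuclei, at most 3.9 CPM in either class in any library.

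**Figure D1:**
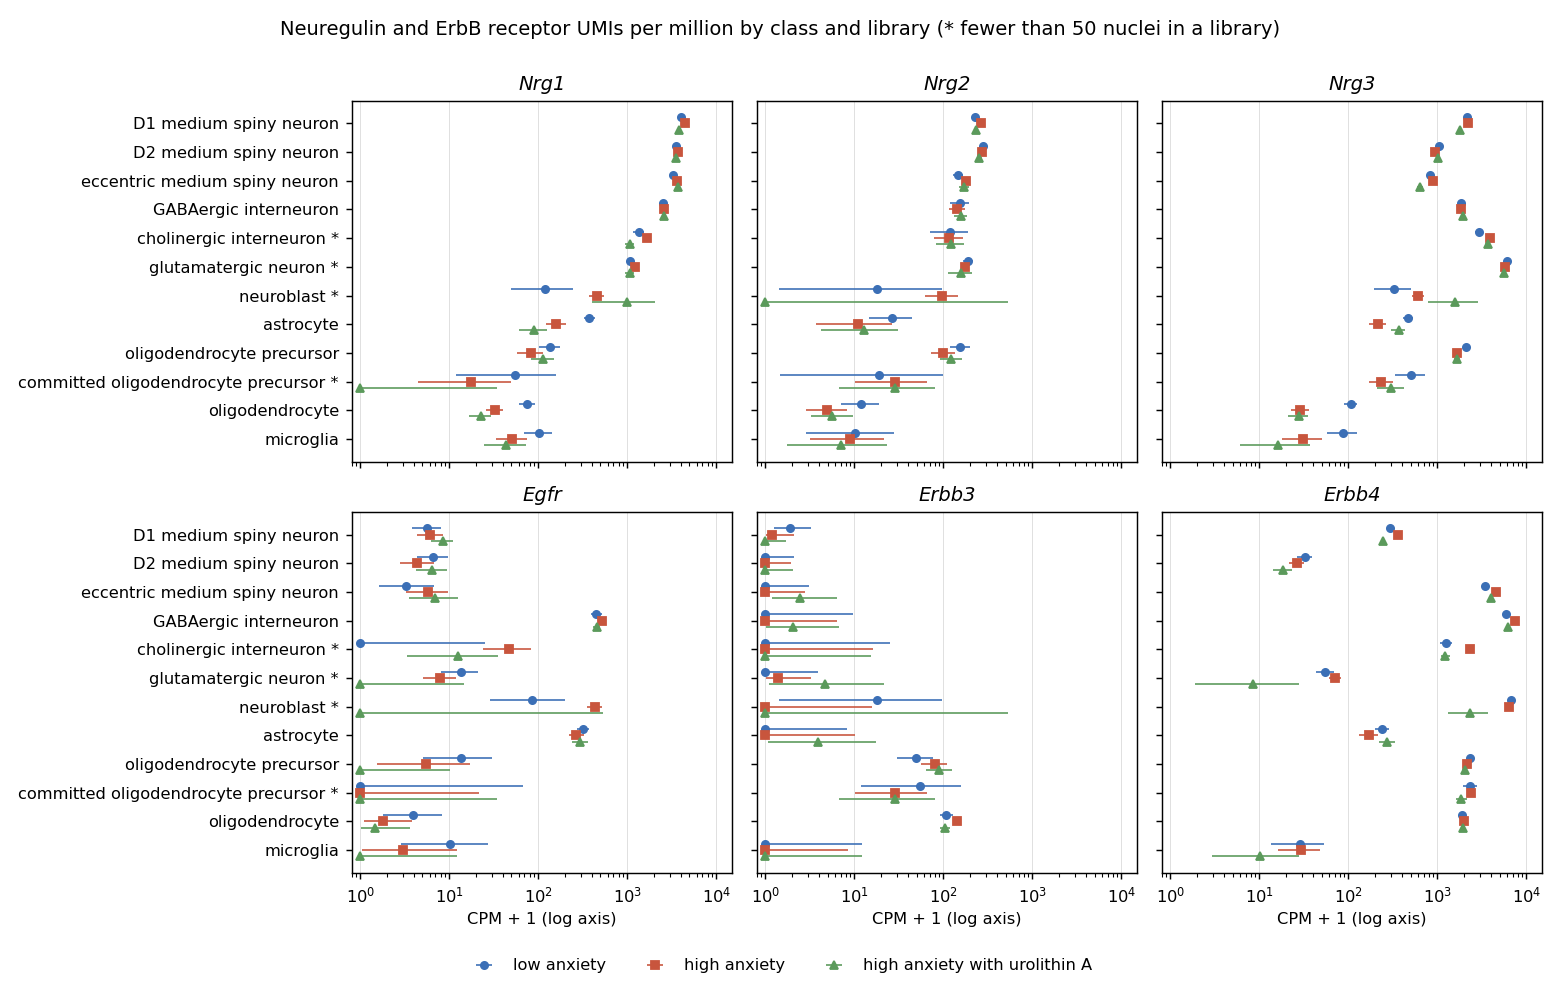
Level of 6 of the genes (CPM + 1, log axis) in each named class, with 1 point per library and bars for the exact 95% counting interval; stars mark classes with fewer than 50 nuclei in a library. Erbb4 reaches 7471 CPM in GABAergic interneurons and at most 31.4 CPM in D2 neurons, Nrg3 is highest in glutamatergic neurons, and Erbb3 lies above 20 CPM only in the 3 classes of the oligodendrocyte lineage.

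Erbb4 had the sharpest division between neuron types. ErbB4 is the neuregulin receptor that both binds ligand and signals as a kinase. GABAergic interneurons had 5827, 7471 and 6246 CPM and eccentric neurons 3442, 4592 and 4031 CPM. D1 neurons had 292, 358 and 243 CPM and D2 neurons 31.4, 25.2 and 17.2 CPM, so the D1 level was above the D2 level in every library. Microglia, which are not known to express Erbb4, had 27.3, 28.0 and 9.2 CPM, and the D2 level lay within the counting interval of microglia in each library. Thinned to 1500 UMIs per nucleus, 19.5% to 25.2% of D1 nuclei and 0.9% to 3.8% of D2 nuclei had an Erbb4 UMI. Without thinning the shares were 35.8% to 44.2% and 5.8% to 10.3%, and thinning left out at most 5 nuclei of either class per library. In D1 neurons most Erbb4 UMIs sat in few nuclei: 96 of 729, 123 of 642 and 92 of 732 nuclei held 5 or more, and these gave 966 of 1341, 1525 of 1841 and 912 of 1248 UMIs.

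Within the interneurons and the eccentric neurons, Erbb4 separated clusters. Interneurons led by Trh and Pthlh had 8655, 9717 and 8724 CPM, and those led by Npy and Sst had 792, 651 and 773 CPM, so the first were higher by about 1 order of magnitude in every library. Npy and Sst encode neuropeptide Y and somatostatin. Eccentric neurons led by Chst9 and Col14a1 had 6803, 8195 and 7212 CPM, those led by Mdfic and Casz1 had 3583, 3917 and 3558 CPM, and those led by Exph5 and Stac had 689, 557 and 833 CPM. The last cluster held 121 nuclei of the low anxiety library and 11 and 17 of the others. The Chst9 and Col14a1 cluster thus had the higher Erbb4 and the lower Nrg1 of the 2 larger eccentric clusters. Neuroblasts had 6778 and 6338 CPM in low and high anxiety, and 2296 CPM from 3 nuclei in urolithin A.

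**Figure D2:**
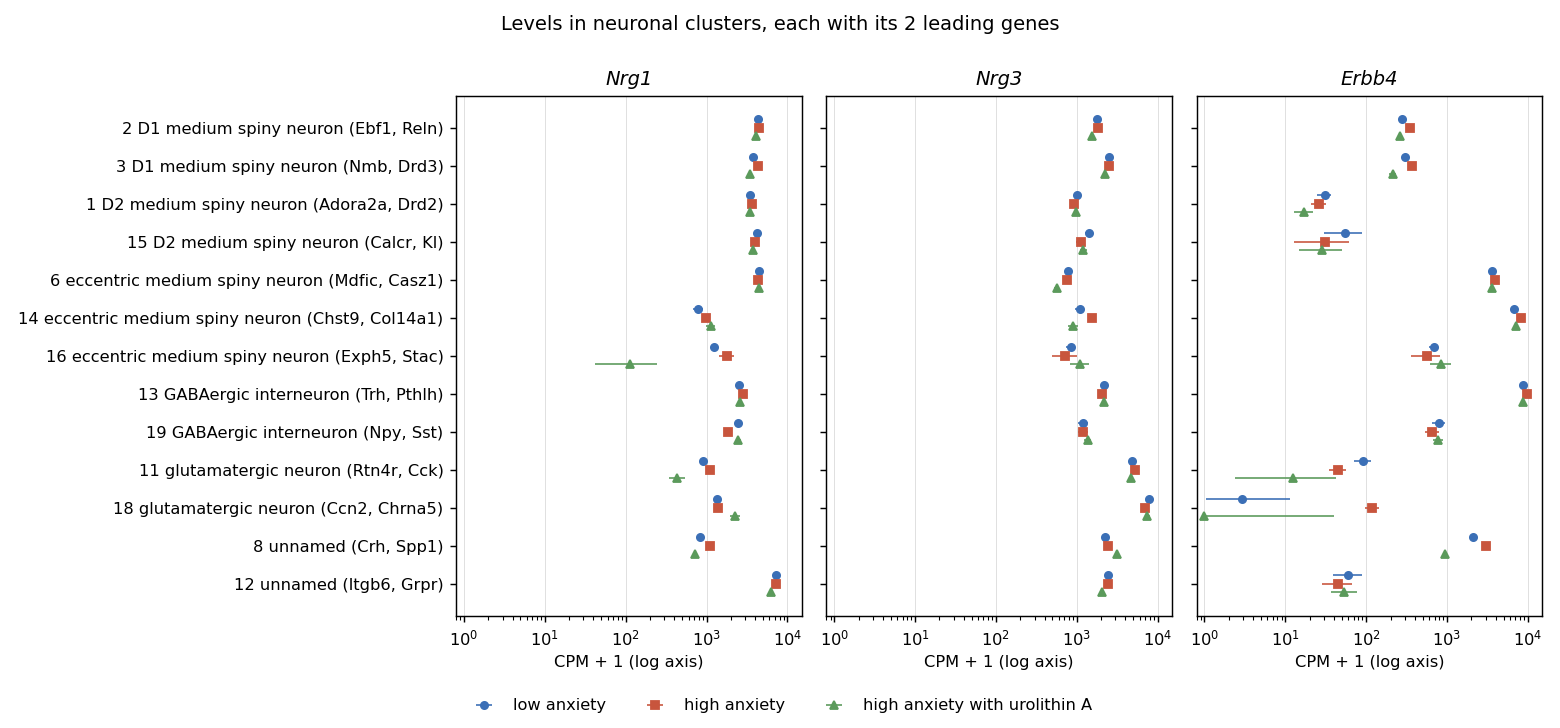
Nrg1, Nrg3 and Erbb4 (CPM + 1, log axis) in the neuronal clusters, labelled by cluster number, name and 2 leading genes, with 1 point per library and bars for the exact 95% counting interval. Erbb4 is at 8655 to 9717 CPM in the Trh and Pthlh interneurons against 651 to 792 CPM in the Npy and Sst interneurons, and Nrg1 is highest in the Itgb6 and Grpr cluster.

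Erbb4 was also high throughout the oligodendrocyte lineage. Precursors had 2321, 2170 and 2016 CPM, committed precursors 2312, 2391 and 1853 CPM, and oligodendrocytes 1865, 1972 and 1931 CPM. The ranges of committed precursors and oligodendrocytes overlapped. In oligodendrocytes 90.9% to 94.3% of nuclei had an Erbb4 UMI, and 88.4% to 89.3% after thinning. Erbb3, whose product pairs with other ErbB receptors, was found almost only in this lineage. Oligodendrocytes gave 727 of its 841 UMIs (86.4%), precursors 90 and committed precursors 11. Its level in oligodendrocytes was 107, 140 and 103 CPM and in precursors 48.1, 78.9 and 89.1 CPM. D2 neurons had 0 UMIs in every library. Taking 3 UMIs per library as the most that a count of 0 allows, the limits were 0.872, 0.780 and 0.848 CPM.

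Egfr, the EGF receptor, was found mainly in GABAergic interneurons and astrocytes, which gave 990 and 368 of its 1870 UMIs. GABAergic interneurons had 448, 522 and 454 CPM and astrocytes 317, 267 and 294 CPM. The medium spiny neuron classes were at most 7.4 CPM. Among interneurons the Trh and Pthlh cluster had 700, 694 and 658 CPM, while the Npy and Sst cluster gave 0, 0 and 1 UMIs, where a count of 0 allows up to 19.8 and 17.8 CPM. Neuroblasts had 84.9, 434 and 0 CPM, the last from 3 nuclei. The vascular-like unnamed cluster gave 70 Egfr UMIs, at 56.0 to 653 CPM from 21 to 39 nuclei per library. Erbb2, the partner receptor without a ligand, gave 0 to 2 UMIs in each class and library. It was too rare to be measured at this depth.

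Other genes were ranked by how closely their level followed each of the 6 genes with enough UMIs. The measure was Pearson's r of log2(CPM + 1) over 24 points, 8 classes in 3 libraries, which share their libraries and classes, among 7338 genes. It is a description. Nrg1 was followed most closely by Klhl29, Bcl11a and Ripor2 (all r = 0.98), Nrg2 by Fgf14 (0.99), Ksr2 and Dok6 (both 0.98), and Nrg3 by Cdh18 (0.98), Ppargc1a and Plppr1 (both 0.97). Erbb3 was followed by Bcas1 (0.98), Pllp (0.97) and Slc44a1 (0.96), of which Pllp encodes a myelin protein. For Erbb4 the closest were Khdrbs3 (0.92), Clstn2 (0.84) and Tmem108 (0.83), and for Egfr they were Moxd1, Cnr1 (both 0.89) and Tnrc6a (0.88), so the last 2 genes had no match as close. Among the members, Nrg2 and Nrg3 were closest (0.91), and Erbb4 and Nrg1 shared little (0.10).

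Between libraries, a gene was called higher or lower in a class when the larger CPM exceeded the smaller by at least 25%. It counted as measured with 100 UMIs or more in either library, and the 8 classes with at least 50 nuclei everywhere were compared. In high against low anxiety, 26 gene and class pairs had enough UMIs, of which 3 were higher and 6 lower, the Nrg3 pair of oligodendrocytes included. Of all genes measured in these 7 classes, 18% to 28.4% were past 25%. In urolithin A against high anxiety, 22 pairs had enough, of which 1 was higher and 3 lower, where 8.58% to 21.8% of all measured genes were past 25%. The high anxiety library stands in both comparisons, so a value that is off in it moves both in opposite directions. Because 100 UMIs in either library were enough, a gene of low level counted only if it was high in one of them, which favours a call. Nrg4 and Erbb2 never had enough UMIs, so 6 of the 8 genes enter, and in microglia no member had enough.

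In D1 and D2 neurons no neuregulin was past 25% in either comparison. In high over low anxiety 0 of 4 measured members were past it in D1 neurons, where 18.9% of all measured genes were, and 0 of 4 in D2 neurons, where 18.2% were. Most members had 500 UMIs or more there, and among all such genes the shares were 9.46% and 9.21%. With 4 members these counts do not stand apart from either share. Nrg1 in D1 neurons differed by a log2 ratio of 0.13 (0.10 to 0.15) and in D2 neurons by 0.08 (0.04 to 0.11). With urolithin A over high anxiety, 1 of 4 was lower in D1 neurons (background 12.8%) and 0 of 3 in D2 neurons (background 15%). In high over low anxiety the largest D1 ratio was that of Erbb4, 0.30 (0.19 to 0.40), just inside the limit. The 1 lower gene after urolithin A was also Erbb4, at 358 CPM in high anxiety and 243 CPM in urolithin A, a log2 ratio of -0.56 (-0.67 to -0.46). Against low anxiety, urolithin A was lower by less (292 and 243 CPM, log2 ratio -0.26, -0.38 to -0.15). Without the D1 nuclei that held 5 or more Erbb4 UMIs the levels were 96.5, 77.8 and 76.0 CPM. That cut removes nuclei by their Erbb4 count, and D1 nuclei were deepest in high anxiety, at medians of 6113, 7685 and 6700 UMIs. The order of the libraries after the cut is therefore not read as a result. After thinning, 24.0%, 25.2% and 19.5% of D1 nuclei had an Erbb4 UMI. Both D1 clusters had their highest Erbb4 in high anxiety, with 280, 351 and 262 CPM and with 304, 365 and 213 CPM.

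In eccentric neurons Erbb4 was higher in high than in low anxiety, with a log2 ratio of 0.42 (0.37 to 0.46), and was 1 of 4 measured members past 25% (background 22%). The class held more of the Exph5 and Stac cluster, with low Erbb4, in low anxiety. Without that cluster the ratio was 0.18, and in the largest cluster alone 0.13 (0.07 to 0.18), so the call was lost. Nrg3 was lower in urolithin A than in high anxiety, with 898 and 635 CPM and a log2 ratio of -0.50 (-0.62 to -0.38), again 1 of 4 (background 16.5%). That difference was present in the Mdfic and Casz1 cluster (764 and 561 CPM) and in the Chst9 and Col14a1 cluster (1539 and 893 CPM). Under the stricter nucleus filter, of 1000 genes and 1% mitochondrial UMIs, the ratio was -0.18.

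In GABAergic interneurons Erbb4 was higher in high than in low anxiety, with a log2 ratio of 0.36 (0.29 to 0.43), 1 of 4 measured members (background 28.2%). Neither cluster alone was past 25%: the ratio was 0.17 (0.10 to 0.24) in the Trh and Pthlh cluster and -0.28 (-0.67 to 0.10) in the Npy and Sst cluster. The Trh and Pthlh cluster was 37 of 64, 65 of 87 and 88 of 135 interneurons in the 3 libraries. After urolithin A, 0 of 5 members were past 25% relative to high anxiety (background 21.8%).

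An unnamed neuronal cluster of 486 nuclei, led by Crh and Spp1, had Erbb4 of 2115, 3038 and 951 CPM. Crh encodes corticotropin-releasing hormone. At a finer clustering (resolution 2) it fell into 3 parts of at least 20 nuclei. In the part led by Spp1, Vip and Crh, with 84, 60 and 222 nuclei, Erbb4 was 1845, 1364 and 889 CPM. In a part led by Yjefn3, Pnoc and Kcns3, Erbb4 was 5801, 8239 and 7138 CPM from 13, 27 and 4 nuclei. In the remaining part, led by Hbb, Ndrg2 and S100b, it was 245, 178 and 334 CPM from 20, 14 and 23 nuclei. The order of the libraries in the whole cluster therefore differed from that in its largest part. Nrg3 in that largest part was 2372, 2719 and 3252 CPM.

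**Figure D3:**
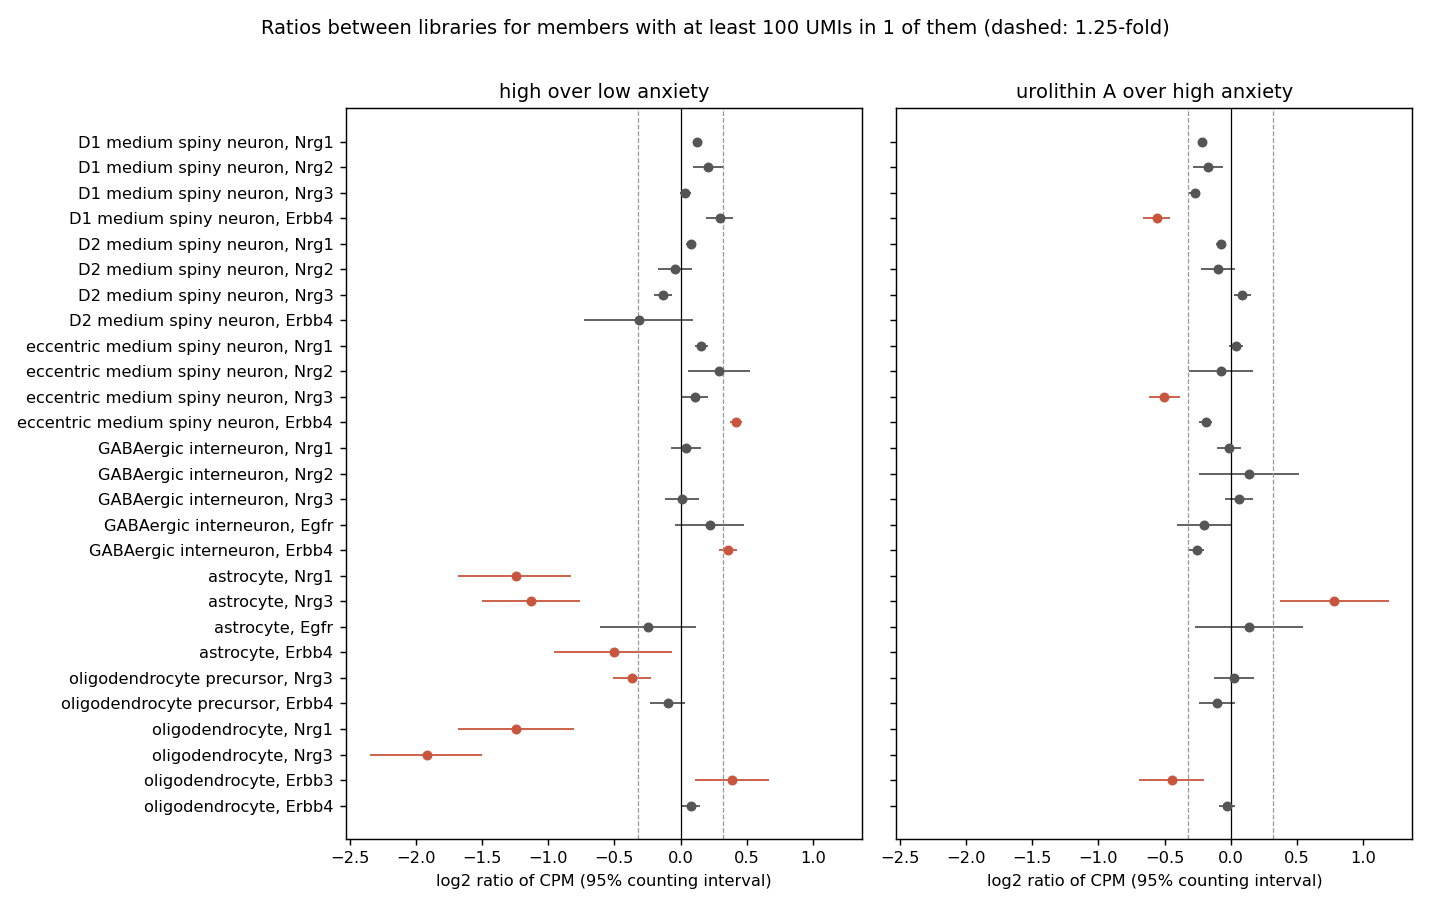
Log2 ratio of CPM between 2 libraries for each measured gene in the classes compared, with exact 95% counting intervals and dashed lines where the larger level exceeds the smaller by 25%; red points are past it. The points farthest below 0 are Nrg3 in oligodendrocytes and Nrg1 in astrocytes and oligodendrocytes in high over low anxiety, and Erbb4 lies above the line in eccentric neurons and GABAergic interneurons.

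In oligodendrocytes both neuregulins with enough UMIs were lower in high than in low anxiety, and Erbb3 was higher. That is 3 of 4 measured members past 25% (background 18%), a count that supports nothing: Nrg3 chose the family, and Nrg3 and Nrg1 reached 100 UMIs only in low anxiety, where they were high. Nrg3 was at 105 (89 to 124), 27.8 (21.7 to 35.0) and 26.7 (20.2 to 34.5) CPM, from 146, 71 and 57 UMIs. The high anxiety value was 3.78-fold below low anxiety, with a log2 ratio of -1.92 (-2.35 to -1.50). It was not lowest in high anxiety here, since urolithin A had the same level within counting error (log2 ratio -0.06, -0.59 to 0.46, from fewer than 100 UMIs). Nrg1 was at 74.1, 31.3 and 21.5 CPM, from 103, 80 and 46 UMIs, a log2 ratio of -1.24 (-1.68 to -0.81) in high over low anxiety. Erbb3 had a log2 ratio of 0.39 (0.11 to 0.67). In the largest oligodendrocyte cluster it was 0.63 (0.26 to 1.01), and in the next 2 it was 0.01 (-0.63 to 0.68) and 0.17 (-0.51 to 0.85), each from fewer than 100 UMIs. Erbb3 was lower in urolithin A than in high anxiety, with -0.45 (-0.69 to -0.20), 1 of 2 measured members (background 8.58%). Erbb4 differed by 0.08 (0.01 to 0.15) and -0.03 (-0.09 to 0.03), and so was within 25% in both comparisons.

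Few oligodendrocytes carried an Nrg3 UMI: 95 of 704, 65 of 1043 and 45 of 924 in the 3 libraries. Thinned to 1500 UMIs, the shares were 12.8%, 3.9% and 3.1%, and in microglia, which are not known to express Nrg3, they were 11.5%, 5.0% and 2.9%. Thinning left out 181, 101 and 129 oligodendrocytes and 90, 59 and 33 microglia. Before thinning the shares were 13.5%, 6.2% and 4.9% in oligodendrocytes and 10.8%, 5.4% and 2.4% in microglia, at median depths of 1821, 2257 and 2157 UMIs and of 1599, 1889 and 1879 UMIs. The thinned shares of the 2 classes were close in each library, so the share in oligodendrocytes is not read as expression. Before thinning the urolithin A shares were further apart. In low anxiety 1 nucleus held 24 of the 146 UMIs, and without the 2 nuclei of 5 or more UMIs the level was 84.8 CPM. Nrg3 was lower in high than in low anxiety in each of the 3 larger oligodendrocyte clusters, at 90.0 and 26.5, 72.4 and 30.4, and 200 and 30.4 CPM. These levels rest on 70 and 40, 26 and 22, and 48 and 8 UMIs, all below the minimum of 100. The nucleus with 24 UMIs lay in the last of these clusters. They split the same nuclei whose Nrg3 level chose the family, so their common direction supports nothing.

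In oligodendrocytes a list of neuron genes was also lower in high than in low anxiety, and a list of medium spiny neuron genes differed little. The summed level of 9 genes shared by neurons was 337, 220 and 202 CPM in oligodendrocytes, a log2 ratio of -0.62 (-0.79 to -0.44) in high over low anxiety, with 0 of the 9 genes at 0 in any library. For the 9 genes of medium spiny neurons the sum was 1582, 1543 and 1461 CPM, a log2 ratio of -0.04 (-0.11 to 0.04). In microglia the same 9 genes summed to 897, 709 and 800 CPM, a log2 ratio of -0.34 (-0.57 to -0.11). How much of the sum in oligodendrocytes is their own expression was not tested. In microglia the neuron genes summed to 379, 236 and 331 CPM, while Nrg3 was 84.8, 30 and 15.3 CPM and Nrg1 100, 50.1 and 42.9 CPM. Relative to high anxiety, the neuron genes in urolithin A microglia were thus higher (log2 ratio 0.49, 0.10 to 0.88). The Nrg3 level there was lower only within counting error (log2 ratio -0.97, -2.78 to 0.56, from 15 and 5 UMIs). Nrg3 per 100 UMIs of the neuron genes was 31.1, 12.6 and 13.2 in oligodendrocytes, and 27.7, 29.6 and 25.6 over all nuclei. In oligodendrocytes without any UMI of the 9 genes (384, 639 and 606 nuclei) Nrg3 was 120, 23.5 and 23.6 CPM, and 1 nucleus held 24 of the 84 UMIs in low anxiety. At these depths a nucleus without a UMI of the list may still hold neuronal RNA. An earlier version of this split, which also required no UMI of 9 medium spiny neuron genes, left 25, 47 and 55 nuclei with 2, 0 and 5 Nrg3 UMIs, too few to compare. The part of neuronal RNA in the Nrg3 and Nrg1 values of oligodendrocytes was not tested.

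**Figure D4:**
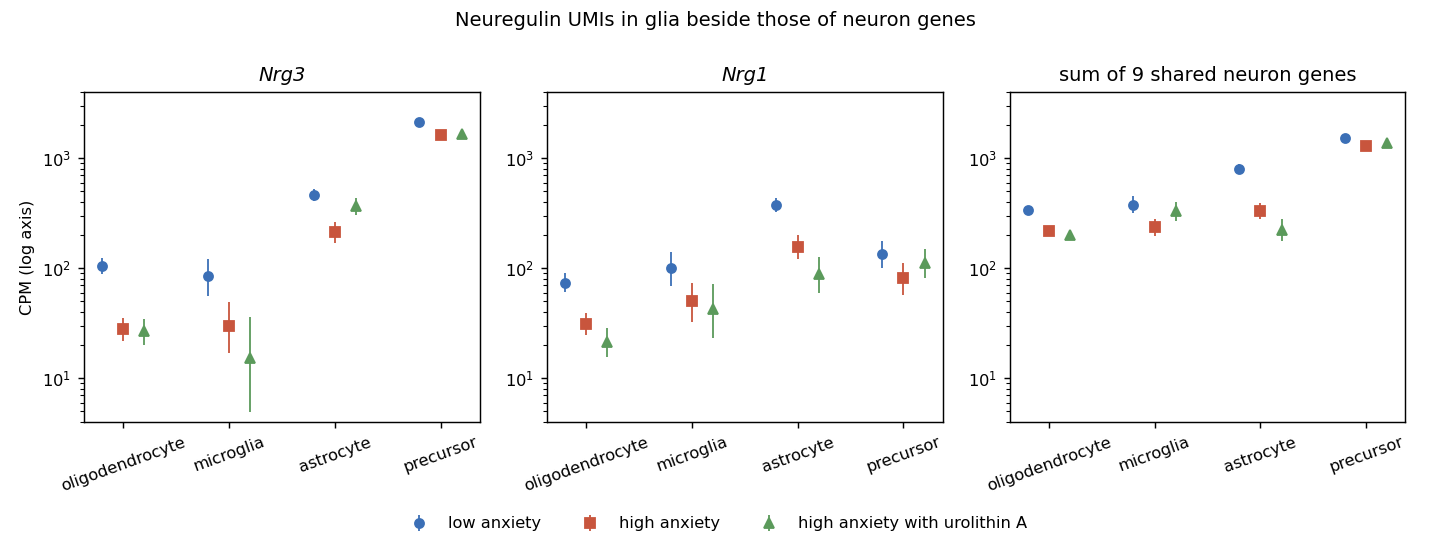
Nrg3, Nrg1 and the summed level of 9 neuron genes (CPM, log axis) in 4 glial classes, with 1 point per library and bars for the exact 95% counting interval. In each of the 4 classes all 3 measures are higher in low than in high anxiety, and Nrg3 in oligodendrocytes (105, 27.8 and 26.7 CPM) lies near Nrg3 in microglia (84.8, 30 and 15.3 CPM).

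In astrocytes 3 of 4 measured members were lower in high than in low anxiety (background 28.4%). These 3 reached 100 UMIs only in low anxiety, where they were high (190 and 63 UMIs of Nrg1, 236 and 85 of Nrg3, 121 and 67 of Erbb4), so the count supports nothing. Nrg1 was 374, 157 and 88.2 CPM, a log2 ratio of -1.25 (-1.68 to -0.83), Nrg3 464, 212 and 365 CPM, -1.13 (-1.50 to -0.76), and Erbb4 238, 167 and 274 CPM, -0.51 (-0.96 to -0.06). The direction of Nrg1 turned at the coarser clustering (resolution 0.5), with a log2 ratio of 0.033, and that of Erbb4 with likely doublets kept, with 0.91. In high anxiety 40 of the 67 Erbb4 UMIs came from 2 nuclei, 1 of them with 35. The neuron genes in astrocytes were 796, 332 and 224 CPM, a log2 ratio of -1.26 (-1.55 to -0.97), the medium spiny neuron genes had -0.59 (-0.72 to -0.46), and their part in these values was not tested. Of the 190 Nrg1 UMIs in low anxiety, 138 came from 8 nuclei with 5 or more, and without such nuclei the level was 112 CPM, against 96.5 CPM in high anxiety. Nrg3 was higher in urolithin A than in high anxiety, with a log2 ratio of 0.78 (0.37 to 1.19), 1 of 2 measured members (background 21.2%), having reached 100 UMIs only in urolithin A (85 and 124 UMIs), while the neuron genes were lower (-0.57, -1.0 to -0.16). Egfr had log2 ratios of -0.24 (-0.61 to 0.12) and 0.14 (-0.27 to 0.54).

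In oligodendrocyte precursors Nrg3 was lower in high than in low anxiety, with 2113 and 1641 CPM and a log2 ratio of -0.37 (-0.51 to -0.22), 1 of 2 measured members (background 24.2%). The neuron genes there had -0.26 (-0.42 to -0.09). They summed to 1541, 1289 and 1373 CPM in precursors, against 379, 236 and 331 CPM in microglia. How much of the sum in precursors is their own expression was not tested. Relative to high anxiety, Nrg3 in urolithin A had 0.03 (-0.13 to 0.18), and 0 of 2 members were past 25% (background 18.5%). Nrg3 was present in 91.4% to 94.8% of precursor nuclei, and in 84.4% to 88.3% after thinning.

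Of 59 other genes of the pathway listed for comparison, 58 were found. They comprised other ErbB ligands, the proteases that release ligands, adaptors, the 2 signalling arms, inhibitors and scaffolds. In high over low anxiety the number past 25% was 2 higher and 3 lower of 43 in D1 neurons, 3 and 2 of 40 in D2 neurons, 1 and 3 of 34 in eccentric neurons, 2 and 1 of 10 in GABAergic interneurons, 0 and 2 of 10 in astrocytes, 0 and 1 of 32 in oligodendrocytes, 1 and 1 of 12 in precursors and 0 and 2 of 9 in microglia. The shares of all measured genes past 25% were, in the same order, 18.9%, 18.2%, 22%, 28.2%, 28.4%, 18%, 24.2% and 30.2%. With urolithin A over high anxiety it was 3 and 1 of 42, 1 and 0 of 39, 1 and 1 of 34, 5 and 0 of 19, 0 and 0 of 6, 0 and 0 of 32, 0 and 0 of 12, and 0 and 2 of 9 in that order, where the shares of all genes were 12.8%, 15%, 16.5%, 21.8%, 21.2%, 8.58%, 18.5% and 17.1%. In GABAergic interneurons the pathway counts, 3 of 10 and 5 of 19, were near these shares. The 1 oligodendrocyte gene was Cblb, an E3 ligase (-0.47, -0.86 to -0.08).

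The most regular of these was Cspg5, neuroglycan C, a membrane proteoglycan with an EGF-like domain that has been reported to bind ErbB3. It was lower in high than in low anxiety past 25% in 5 of the 6 classes where it had enough UMIs, and was singled out after its values were seen. Of all measured genes, 815 of 7376 were lower past 25% in D1 neurons and 657 of 6280 in D2 neurons. The share of all genes lower in as many classes was not computed, so this count is not read as a result about the pathway. Cspg5 in D1 neurons was at 95.6, 65.4 and 82.9 CPM, log2 ratios of -0.55 (-0.76 to -0.34) and then 0.34 (0.13 to 0.55). D2 neurons had 84.3, 57.7 and 81.4 CPM, eccentric neurons 100, 73.2 and 104 CPM, GABAergic interneurons 268, 189 and 262 CPM, and precursors 2432, 1814 and 2194 CPM. Astrocytes had 1594, 1475 and 1535 CPM and were within 25%. Its lowest value was in high anxiety in each of these 6 classes, which share that library. Free RNA from precursors and astrocytes, where it is highest, was not tested as a part of the neuronal values.

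Other pathway genes past 25% in D1 neurons were Src and Errfi1, both at 0.43 (0.08 to 0.79 and 0.16 to 0.70), and Pik3r2 (-0.52, -0.91 to -0.12) in high over low anxiety. Src encodes a kinase and Errfi1 an inhibitor of EGFR. In D2 neurons Src was at 0.46 (0.03 to 0.90) and Adam17, a protease that frees ErbB ligands, at 0.45 (0.04 to 0.88). In urolithin A over high anxiety Lrig1, an inhibitor of ErbB receptors, was at 0.49 (0.10 to 0.89) and Spry2, an inhibitor of the MAP kinase arm, at -0.46 (-0.80 to -0.14) in D1 neurons. In GABAergic interneurons the adaptors Sos2 and Grb2 were at 0.51 (0.16 to 0.87) and 0.50 (0.10 to 0.92). In precursors Gab1, an adaptor, was at 0.58 (0.13 to 1.03) in high over low anxiety. In astrocytes Spred1, an inhibitor of the MAP kinase arm, was at -0.67 (-1.10 to -0.25). Erbin, a scaffold of ErbB2, was the other astrocyte gene, at -0.33 (-0.81 to 0.13).

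The remaining genes past 25% and furthest from 0 in their class were fewer. In high over low anxiety they included Hras in D2 neurons (-0.37, -0.80 to 0.05), Sos1 (-0.40, -0.64 to -0.15) in eccentric neurons, and Fyn (0.59, 0.16 to 1.03) and Pik3ca (0.34, -0.08 to 0.76) in GABAergic interneurons. Fyn encodes a kinase of the Src family. Microglia had Spred1 (-0.40, -0.78 to -0.02). In the urolithin A comparison they included Adam9 in eccentric neurons (-0.36, -0.84 to 0.11) and Stat5b (-0.33, -0.80 to 0.13) in microglia. Several of these intervals include 0, so those differences lie within counting error.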

How the data were processed

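The 3 single-nucleus libraries (Chromium 3' kit, chemistry 3.1), 1 per group, came from pooled accumbens punches. The deposited matrices hold raw UMI counts. Their headers name Cell Ranger 7.1.0, and the values are whole counts per gene and nucleus, per the file headers. The build was mRatBN7.2, per the submitters' processing notes. Intron counting and any removal of free RNA are not given in the sources used here, and both bear on low levels in glia. The members and lists were chosen with earlier results of these data known.

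Barcodes below 500 genes or above 5% mitochondrial UMIs were dropped, and the highest Scrublet scores, 0.8% per 1000 nuclei, were removed as likely doublets (97, 116 and 99). Each nucleus was scaled to 10000 UMIs before taking logs. From 2000 variable genes, without the 8 members, values scaled within each library (limit 10) gave 30 components, 15 neighbours and 24 Leiden clusters at resolution 1 (scanpy 1.11.5, leidenalg 0.10.2, seed 7). Of 17 marker lists, the one highest in a cluster by mean log2 fold named it if 3 or more members and 50% or more of the list were 2-fold higher (20 UMIs, 10 CPM). Clusters whose 10 leading genes pointed mainly to other classes stayed unnamed. The 50% limit and the strict rule between medium spiny neuron types were set after the data were seen. Of 149 markers, 142 were found.

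UMIs were summed per class and library. CPM has exact Poisson intervals and ratios have exact conditional (Clopper-Pearson) intervals. Shares of nuclei were also computed after thinning nuclei to 1500 UMIs. The genes named beside the members were the 3 closest by r, and the 2 pathway genes furthest above and below 0 per class and comparison, some of which are not reported here. The calculation was tested on simulated data with independent counts, so that test does not cover UMIs gathered in few nuclei. Alternatives covered clustering, doublets, filters, scaling, thinning and the UMI minimum. Those on neuron genes in oligodendrocytes and on the Exph5 and Stac cluster were chosen after seeing the data.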

Additional observations from a re-analysis of the deposited data

How the results depend on the processing

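Over 49 results and 15 other settings, 573 values were computed: 489 stayed within counting error or within 1.5 times a count, 82 moved further and 2 changed sign. A ratio does not depend on the UMI minimum. The 49 unchanged values with no minimum and the 34 with a minimum of 500 UMIs were therefore fixed in advance and show no stability. Both sign changes were in astrocytes, high over low anxiety: Nrg1 was 0.033 on the log2 scale at Leiden resolution 0.5, and Erbb4 was 0.91 with likely doublets kept. Nrg3 in oligodendrocytes, high over low anxiety, stayed below 0 in all 12 planned settings, where those on the UMI minimum could not move it. It was -1.41 with likely doublets kept and -2.95 with the stricter nucleus filter (1000 genes, 1% mitochondrial UMIs). That value chose the family, and every setting reuses the same 2 libraries, so its steady sign supports nothing. In urolithin A over high anxiety Nrg3 was 0.58 in oligodendrocytes with the stricter filter and 0.65 in those without neuron or medium spiny neuron list UMIs. The count of members past 25% in high over low anxiety, 9 of 26, was 5 of 21 with the stricter nucleus filter, 14 of 26 as a mean over nuclei, 3 of 16 with a minimum of 500 UMIs and 25 of 46 with no minimum. In urolithin A over high anxiety, 4 of 22, it was 7 of 23 at resolution 0.5, 10 of 28 with doublets kept, 2 of 20 with the stricter filter, 2 of 16 with 500 UMIs and 16 of 43 with no minimum. With the minimum of 500 UMIs, 9.21% to 30.6% of all genes were past 25% in high over low anxiety, in the classes with a measured member. In urolithin A over high anxiety these shares were 1.69% to 23.7%. For the other settings no share of all genes is given, so their counts are not read as results about the members. A higher or lower UMI minimum changes how many pairs are counted, and for the other settings the cause was not tested. No paired analysis was possible because each group is 1 library. Erbb4 in D1 neurons, urolithin A over high anxiety, ranged from -0.65 to -0.42. Depth limits Nrg4, Erbb2 and the neuregulins in astrocytes, oligodendrocytes and microglia.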
